A study of Mus musculus with 2 samples.

Results

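The genes described here are 36 members of the Atf4 stress response and of amino acid supply, taken by symbol from a list of Atf4 pathway, amino acid transporter and amino acid synthesis genes. All 36 were found among the 45318 genes of the deposited count table by their Ensembl mouse identifiers. They were read in leukaemia cells of C57Bl/6 mice that carry the MLL/AF9 fusion oncogene and were sorted as GFP-positive cells from the bone marrow. There were 2 libraries: 1 from mice given vehicle and 1 from mice given brequinar, which inhibits dihydroorotate dehydrogenase in de novo pyrimidine synthesis. Both groups carry MLL/AF9 and GFP. Dose, treatment time, age and number of mice were not given in the sources used here. Since each group is 1 library, there is no replicate check of any difference and no p-value is printed.

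Atf4 is a transcription factor whose mRNA is translated better when eIF2 alpha is phosphorylated. That phosphorylation is made by kinases that sense haem shortage, unfolded protein in the endoplasmic reticulum, uncharged tRNA or double-stranded RNA, and it is removed by a phosphatase with a Ppp1r15 subunit. Atf4 then switches on genes for amino acid transport and synthesis, together with factors such as Ddit3 and Trib3. Because Atf4 is controlled largely in translation, its mRNA level does not measure its activity. Its target mRNAs are therefore commonly used as the readout.

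Atf4 and its partner C/EBP proteins bind a composite element whose core is TGATGNAA, and this core was searched on both strands of each RefSeq promoter window (250 bases before to 50 after the gene's start, GRCm38.p6). Of the 31 members with a window in the RefSeq table, 11 (35.5%) held the core, against 4.51% of the 27025 genes in the table. The 11 were Asns, Atf3, Chac1, Nupr1, Pck2, Pycr1, Slc1a4, Slc7a11, Slc7a7, Trib3 and Vldlr. The stricter form TTGCATCA, the core with C at its open position read from the other strand, was found in 8 of 31 members (25.8%) and in 1.03% of all genes. The ATF/CRE element TGACGTCA stood in the window of 1 member, Ppp1r15a, and of 2.03% of all genes. Since the members were listed as genes of the Atf4 pathway and of amino acid supply, these shares are not independent of that choice. A match is a description of letters, not a measured binding site.

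The windows of 4 members are printed 5′ to 3′ in the direction of transcription, with the core in capitals. Whether the element had a part in any difference was not tested. Annotated exon bases next to the start were left out. Among members that averaged 1 CPM (counts scaled to library size) or more, Pycr1 and Atf3 were those beyond 2-fold that held the core, and Nupr1, Trib3, Slc1a4 and Vldlr held it at lower levels. Chac1 and Slc7a11 were chosen after their values were seen, as targets within 2-fold or at a low level. The Pycr1 window is chr11:120643770-120643998 on the minus strand, the Atf3 window chr1:191183341-191183583 on the minus strand, the Chac1 window chr2:119350992-119351228 on the plus strand and the Slc7a11 window chr3:50443615-50443863 on the minus strand.
Pycr1: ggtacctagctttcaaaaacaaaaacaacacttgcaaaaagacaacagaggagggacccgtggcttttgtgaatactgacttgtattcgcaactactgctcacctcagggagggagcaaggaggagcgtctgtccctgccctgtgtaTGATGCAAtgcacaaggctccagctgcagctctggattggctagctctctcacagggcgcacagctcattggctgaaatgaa
Atf3: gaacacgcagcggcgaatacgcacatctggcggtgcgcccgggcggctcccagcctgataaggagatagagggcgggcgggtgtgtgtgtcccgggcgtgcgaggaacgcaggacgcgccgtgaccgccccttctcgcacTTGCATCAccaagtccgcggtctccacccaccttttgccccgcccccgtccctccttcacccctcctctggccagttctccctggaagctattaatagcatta
Chac1: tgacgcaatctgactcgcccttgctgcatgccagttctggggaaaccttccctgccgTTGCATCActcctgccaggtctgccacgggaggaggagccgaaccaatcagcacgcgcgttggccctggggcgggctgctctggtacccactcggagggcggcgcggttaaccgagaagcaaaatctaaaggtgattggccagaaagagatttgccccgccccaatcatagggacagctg
Slc7a11: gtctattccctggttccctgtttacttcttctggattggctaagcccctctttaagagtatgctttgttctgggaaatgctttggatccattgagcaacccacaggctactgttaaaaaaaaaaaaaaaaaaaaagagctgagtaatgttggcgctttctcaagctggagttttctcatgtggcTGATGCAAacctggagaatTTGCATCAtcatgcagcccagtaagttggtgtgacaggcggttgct
The core began 103 bases before the RefSeq start in Pycr1, 110 in Atf3 and 193 in Chac1. Slc7a11 held it on both strands, beginning 66 and 47 bases before the start. The Atf3 window lies inside the span that GENCODE gives the gene, since a longer transcript starts further upstream.

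The mRNA of Atf4 was 1.06-fold lower in the brequinar library, and most members of its pathway differed by less than 2-fold. Levels are counts scaled to a common library size (CPM, with TMM factors), and 28 members averaged 1 CPM or more and are called measured here. Of these 28, 1 was higher by 2-fold or more with brequinar, Atf3. The share of all 11504 such genes that were at least 2-fold higher was 6.45%. The members at least 2-fold lower were 2, Pycr1 and Stc2, beside 4.40% of all genes. As shares of the measured members these counts are 3.57% and 7.14%, so they lie near the background. With scaling by total counts alone, none was higher and 4 were lower, with Pck2 and Gpt2 added, where the shares of all genes were 5.75% and 5.49%. The other 25 lay within 2-fold.

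The median log2 ratio (brequinar over vehicle, prior count of 2) of the measured members was -0.21, against 0.00029 over all measured genes. A log2 ratio below 0 was found for 22 of the 28, against 5746 of 11504 genes. With total counts alone it was found for 24 of the 28, where 58.9% of all measured genes with a symbol lay below 0. The median of the synthesis enzymes was the lowest among the 5 groups of members by role, at -0.64, with 6 of 6 measured enzymes below 0. That group holds Pck2, which makes phosphoenolpyruvate and no amino acid. With Pck2 left out, the middle value would be that of Aldh18a1, at -0.38, and the group would not be the lowest. The other stress targets, with 2 measured (Stc2 and Ddit4, on opposite sides of 0), had a median of -0.59. The transporters, with 10 measured, had a median of -0.16, the transcription factors and their regulators, with 5, one of -0.12, and the kinases and phosphatase subunits, with 5, one of -0.40. These counts describe 1 pair of libraries in which the members share every technical influence.

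**Figure D1:**
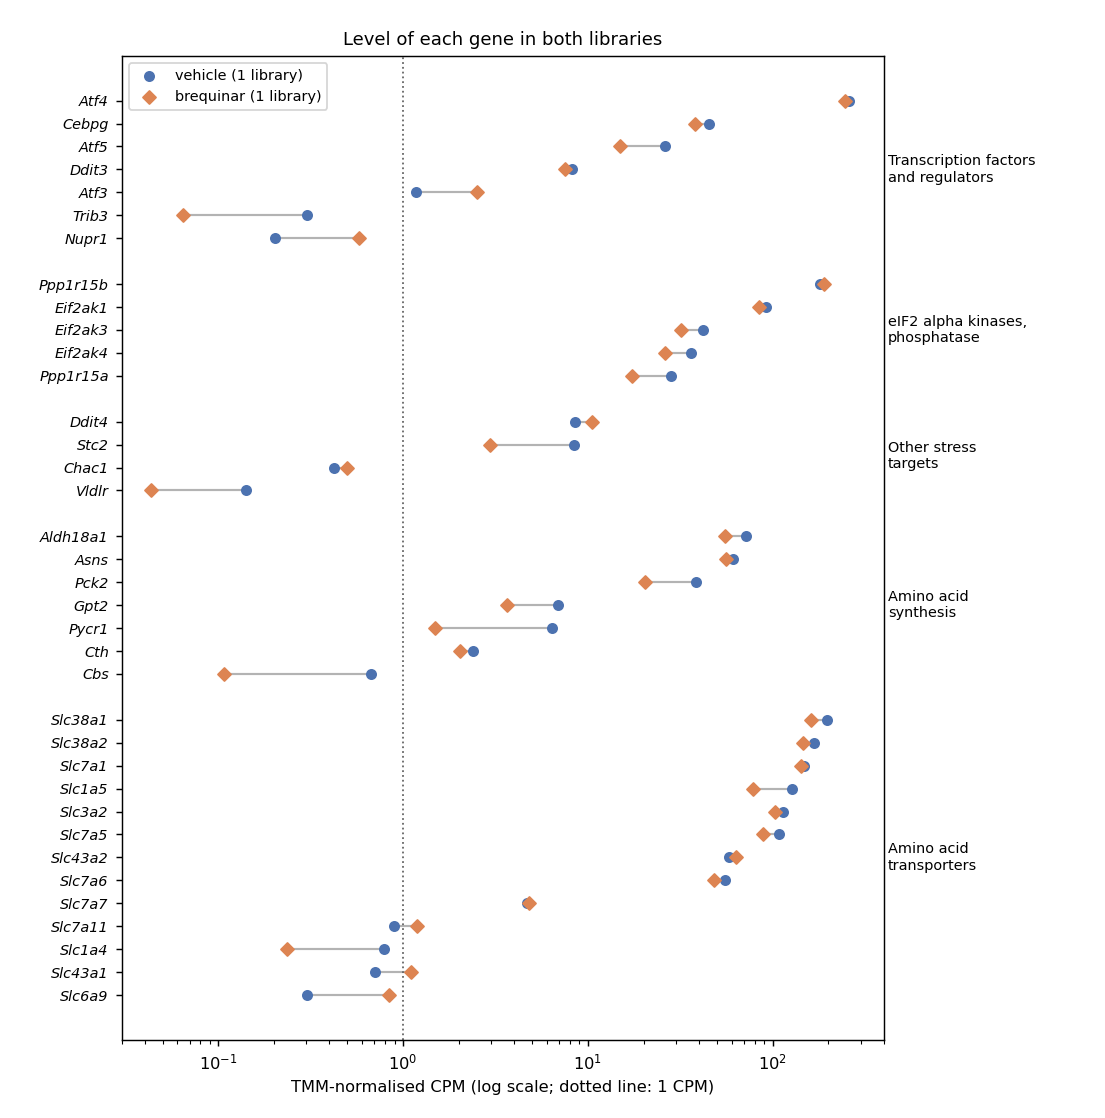
TMM-normalised CPM (log axis) of each of the 36 genes in the vehicle library (circles) and the brequinar library (diamonds), by role, with a dotted line at 1 CPM. Atf4 stands at 260.2 and 245 CPM. Of the genes averaging 1 CPM or more, Pycr1 and Stc2 show the widest gaps to the left and Atf3 the widest to the right. Of the genes averaging less, Trib3, Vldlr, Cbs and Slc1a4 show wide gaps to the left, and Nupr1 and Slc6a9 to the right.

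The libraries were of near-equal depth, with 47935476 gene counts for vehicle and 47950714 for brequinar. A single count was worth 0.0202 and 0.0215 CPM. Intervals below are exact (Clopper-Pearson) 95% intervals of the ratio and cover counting error only. Amplified reads are not independent molecules, so the true counting error can be wider. The cells carried the markers of myeloid blasts (all 10 listed genes measured), whose summed level was 15081 CPM with vehicle and 6487 CPM with brequinar, with Mpo, Flt3, Cd34 and Kit at least 2-fold lower. The granule genes Mpo, Elane, Prtn3 and Ctsg made up 92.3% and 85.4% of that sum. The blast transcription factor genes Myb, Hoxa9 and Meis1 lay within 2-fold, with log2 ratios of -0.06, -0.05 and 0.29. The summed level of 12 genes of maturing neutrophils was 1461 and 24106 CPM, and 12 of 12 were at least 2-fold higher. Erythroid markers (14 of 14 measured) and markers of resident macrophages (8 of 10) were also at least 2-fold higher. Beside these counts, 6.45% of all measured genes were at least 2-fold higher and 4.40% at least 2-fold lower. In such bulk samples fewer cells of a type and less RNA per cell cannot be told apart. Every marker of these 4 lists had a count in both libraries. The part of these marker differences, or of any change in cell makeup, in the values of any member was not tested.

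Atf4 (ENSMUSG00000042406.7, chromosome 15, 80255184 to 80257541, plus strand, GRCm38) had 12874 counts with vehicle and 11369 with brequinar, or 260.2 and 245 CPM. The log2 ratio was -0.09, a level 1.06-fold lower in the brequinar library (interval 1.04 to 1.09). Per kilobase of its longest transcript Atf4 was the most abundant of the 36, at 129 and 121 CPM per kilobase. The libraries thus differed little in a message that ranked first among the members in both measures of length.

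Atf3 encodes a factor of the same bZIP family that is induced by many stresses, among them DNA damage. It had 58 and 116 counts, or 1.17 and 2.50 CPM, and was 2.13-fold higher in the brequinar library (interval 1.54 to 2.97). The interval spans 2-fold, and the log2 ratio of 1.06 was 0.98 with total counts alone and 0.99 with totals that leave out the most abundant genes, both of which end the call. Atf3 (ENSMUSG00000026628.10) lies on chromosome 1, from 191170296 to 191218039, on the minus strand. Of the p53 target genes listed, 11 of 17 measured were at least 2-fold higher in the same library, beside 6.45% of all measured genes. Among the 11 was Cdkn1a, the gene of the cell cycle inhibitor p21, at 25.5 and 329.6 CPM. Whether Atf3 moved with these p53 targets was not tested.

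The remaining measured factors were level or lower. Ddit3, which encodes the death-promoting factor CHOP, had 405 and 350 counts, or 8.18 and 7.53 CPM, with an interval of the brequinar over vehicle ratio from 0.796 to 1.06. Ddit3 shares 68 exonic bases with Mars on the opposite strand, and the strand setting of the counting was not stated, although the library kit keeps strand. Cebpg, a C/EBP partner of Atf4, stood at 45.1 and 37.97 CPM. Atf5, which like Atf4 is controlled in translation and serves the mitochondrial stress response, stood at 26.2 and 14.9 CPM, 1.75-fold lower (interval 1.59 to 1.92). Neither Ddit3 nor Cebpg nor Atf5 passed 2-fold.

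Trib3 and Nupr1 were close to absent. Trib3, a pseudokinase gene that Atf4 and CHOP induce strongly under stress, had 15 and 3 counts, or 0.303 and 0.0646 CPM. Its ratio of brequinar over vehicle was 0.213, with a counting interval from 0.0395 to 0.753. Nupr1, a small stress-induced chromatin protein, had 10 and 27 counts, or 0.202 and 0.581 CPM, with a ratio of 2.88 (interval 1.35 to 6.66). Both means lay below 1 CPM, so neither gene was counted as higher or lower. The brequinar library thus held 3 reads of Trib3 beside 11369 of Atf4.

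The kinases of eIF2 alpha were present in both libraries at similar levels. Eif2ak1 (HRI, the haem-regulated kinase) stood at 91.9 and 84.0 CPM, Eif2ak3 (PERK, the kinase of the endoplasmic reticulum) at 41.9 and 31.8 CPM, and Eif2ak4 (GCN2, which senses uncharged tRNA) at 36.2 and 26.05 CPM. The ratios of brequinar over vehicle were 0.914, 0.760 and 0.719, so each was lower by less than 2-fold. Together with Eif2ak2 (PKR, the kinase activated by double-stranded RNA), the kinases summed to 50.7 and 43.96 CPM per kilobase. Of that sum Eif2ak1 held 41.9% and 44.2%, Eif2ak2 26.3% and 28.6%, Eif2ak3 18.3% and 16.03%, and Eif2ak4 13.5% and 11.2%. The order of the 4 kinases was the same in both libraries. Eif2ak1 shares 487 exonic bases with Aimp2 on the opposite strand, which stood at 47.2 and 55.3 CPM.

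The phosphatase subunits differed from each other. Ppp1r15a (GADD34), the stress-induced subunit that removes the phosphate from eIF2 alpha and so ends the response, stood at 28.2 and 17.2 CPM, 1.64-fold lower in the brequinar library (interval 1.499 to 1.79). Ppp1r15b, the constitutive subunit, stood at 179 and 189.8 CPM, with a log2 ratio of 0.08 that became -0.01 with total counts alone. Per kilobase Ppp1r15a made up 23.8% of the pair with vehicle and 15.3% with brequinar, a share that does not depend on the scaling between libraries.

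Among the remaining stress targets Stc2 was the gene that fell. Stc2 (ENSMUSG00000020303.2, chromosome 11, 31357307 to 31370074, minus strand) encodes stanniocalcin 2, a secreted glycoprotein induced by stress of the endoplasmic reticulum. It had 416 and 137 counts, or 8.41 and 2.95 CPM, and was 2.85-fold lower in the brequinar library (interval 2.34 to 3.48). Of all measured genes 1.69% had a lower log2 ratio. Its RefSeq window held no match to the core. Ddit4, which encodes the mTORC1 inhibitor REDD1, went the other way by less than 2-fold, at 8.51 and 10.6 CPM, 1.24-fold higher (interval 1.09 to 1.42). Chac1, which encodes an enzyme that degrades glutathione and is a sensitive Atf4 target, had 21 and 23 counts, or 0.424 and 0.495 CPM. Its interval ran from 0.617 to 2.22, so counting error alone left the direction of any difference undecided at this depth. Vldlr, a lipoprotein receptor, had 7 and 2 counts, a ratio of 0.304 with an interval from 0.0308 to 1.60.

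**Figure D2:**
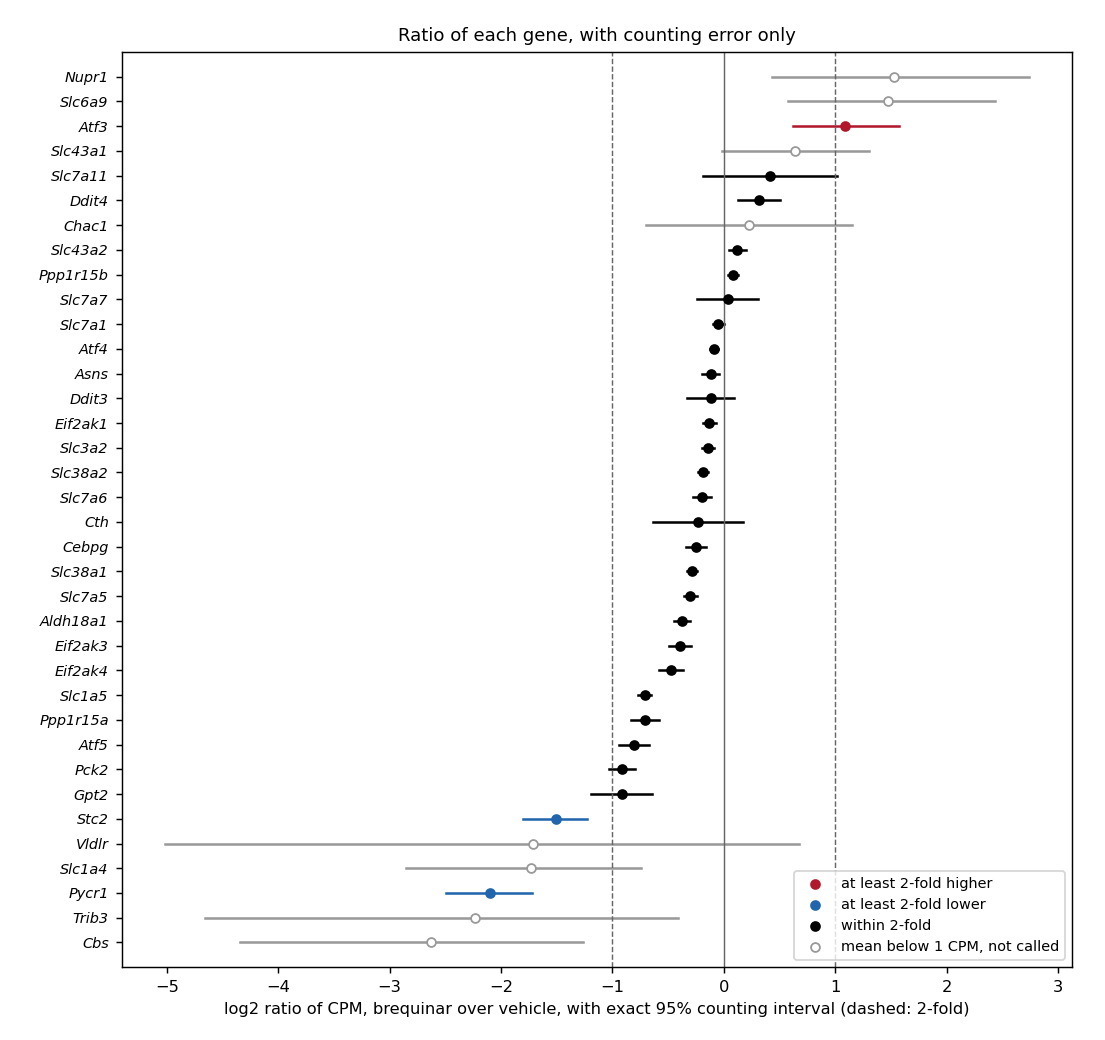
Log2 ratio of CPM (brequinar over vehicle, no prior count) of each of the 36 genes with its exact 95% counting interval. Filled points are genes that average 1 CPM or more, open points lie below it, and dashed lines mark 2-fold. The intervals of Pycr1 and Stc2 lie wholly beyond 2-fold, and that of Atf3 spans the line.

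The members grouped as amino acid synthesis enzymes were lower or level, and Pycr1 was the member with the largest difference among those measured. Pycr1 (ENSMUSG00000025140.12, chromosome 11, 120635712 to 120643769, minus strand) encodes the mitochondrial enzyme of the last step of proline synthesis. It had 315 and 69 counts, or 6.37 and 1.49 CPM, and was 4.29-fold lower in the brequinar library (interval 3.29 to 5.65). Of all measured genes 0.669% had a lower log2 ratio. Aldh18a1, which encodes the enzyme of the steps before it in the same pathway, stood at 71.7 and 55.3 CPM, 1.30-fold lower (interval 1.23 to 1.37). The intervals of these enzymes of one pathway did not overlap, but they cover counting error only and leave out the spread between mice.

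Pck2, the mitochondrial phosphoenolpyruvate carboxykinase, and Gpt2, the mitochondrial alanine aminotransferase, lay just inside the 2-fold limit. Pck2 stood at 38.5 and 20.4 CPM, 1.88-fold lower (interval 1.74 to 2.04), and Gpt2 at 6.91 and 3.66 CPM, 1.89-fold lower (interval 1.57 to 2.28). Asns, which makes asparagine and is a classical Atf4 target, stood at 60.6 and 55.9 CPM, 1.09-fold lower (interval 1.03 to 1.14). Asns had a match to the core, TGATGAAA, beginning 23 bases before its RefSeq start, and no match to the stricter form. The part of the element in the values of any member was not tested.

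The enzymes of transsulphuration, which make cysteine from homocysteine, stood low. Cth had 119 and 95 counts, or 2.405 and 2.05 CPM, with an interval of the ratio from 0.642 to 1.12. Cbs had 33 and 5 counts, or 0.667 and 0.108 CPM, and its ratio was 0.161 (interval 0.0492 to 0.416). The interval of Cbs lies wholly beyond 2-fold, but its mean was below 1 CPM. Without the filter on low genes, 3 of the 36 members were at least 2-fold higher (Atf3, Nupr1 and Slc6a9), where the share of all 21287 genes with a count was 11.6%. In that setting 6 members were at least 2-fold lower (Trib3, Stc2, Vldlr, Pycr1, Cbs and Slc1a4), where the share of all genes was 9.74%.

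No measured amino acid transporter passed 2-fold in either direction. The 13 transporters summed to 982 CPM with vehicle and 839.6 CPM with brequinar. Slc1a5 (ASCT2), which carries glutamine and other neutral amino acids, differed most among the abundant ones, at 127 and 77.8 CPM, 1.64-fold lower (interval 1.57 to 1.70). Of the sodium-coupled neutral amino acid carriers, Slc38a1 had 197 and 162 CPM, and Slc38a2 had 166 and 146 CPM. Slc7a1, a carrier of arginine and lysine, stood at 148 and 143 CPM. Slc43a2, a carrier of large neutral amino acids, was 1.09-fold higher (58.2 and 63.4 CPM).

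Slc3a2 encodes the heavy chain 4F2hc (CD98), which brings several light chains to the cell surface. It stood at 114 and 103 CPM, 1.10-fold lower in the brequinar library (interval 1.06 to 1.15). Of its light chain genes, Slc7a5 (LAT1, leucine and other large neutral amino acids) had 109 and 88.1 CPM, and Slc7a6 (y+LAT2, basic and neutral amino acids) had 55.4 and 48.4 CPM. Slc7a7 (y+LAT1) stood at 4.67 and 4.78 CPM, with a log2 ratio of 0.03 that turned below 0 with total counts alone. It shares 232 exonic bases with Oxa1l on the opposite strand (58.6 and 45.3 CPM). Slc7a11 (xCT), the cystine carrier, had 44 and 55 counts, or 0.889 and 1.18 CPM, with an interval of the ratio from 0.879 to 2.03.

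Slc7a8 (LAT2), a light chain outside the 36 and part of a list of other amino acid carriers, stood at 19.6 and 37.3 CPM, 1.90-fold higher (interval 1.75 to 2.06). Per kilobase the light chains summed to 52.6 and 49.3 CPM, or 1.30 and 1.35 for each unit of Slc3a2. Within that sum Slc7a5 held 58.7% with vehicle and 50.8% with brequinar, Slc7a6 held 28.1% and 26.1%, and Slc7a8 held 9.14% and 18.5%. Slc7a11 held 0.183% and 0.260%, and Slc7a10 had no count in either library. The sum was thus near-level, with a smaller share of Slc7a5 and a larger share of Slc7a8 in the brequinar library. Neither gene passed 2-fold. The part of any change in cell makeup in these shares was not tested.

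**Figure D3:**
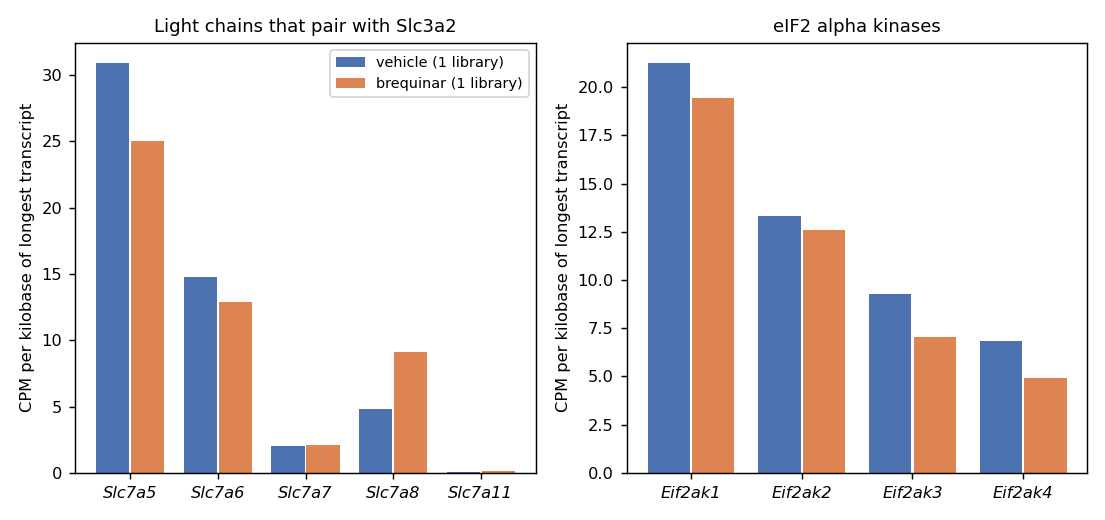
CPM per kilobase of the longest transcript for the light chain genes that pair with Slc3a2 (left) and for the eIF2 alpha kinases (right), in 1 vehicle and 1 brequinar library. Slc7a5 is lower (30.9 and 25.1) and Slc7a8 higher (4.81 and 9.13) in the brequinar library, and the kinases keep their order.

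The other 3 transporters had means below 1 CPM. Slc1a4 (ASCT1), a carrier of alanine, serine and cysteine, had 39 and 11 counts, or 0.788 and 0.237 CPM, and its ratio was 0.3004 (interval 0.139 to 0.598). Slc43a1, a carrier of large neutral amino acids, had 35 and 51 counts, or 0.707 and 1.10 CPM, with an interval from 0.990 to 2.46. Slc6a9 (GlyT1), a glycine carrier that red cell precursors use for haem synthesis, had 15 and 39 counts, or 0.303 and 0.840 CPM, with a ratio of 2.77 (interval 1.49 to 5.41). The 15 erythroid markers summed to 84.3 and 296.8 CPM, and the part of erythroid RNA in the Slc6a9 value was not tested.

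Genes next to the members in the pathway were read from lists by function. The counts of all lists that follow stand beside shares of all measured genes of 6.45% higher and 4.40% lower by at least 2-fold. Of 9 measured enzymes of serine synthesis and one-carbon metabolism, many of them Atf4 targets, 2 were at least 2-fold lower and none higher, with a median log2 ratio of -0.29. Aldh1l1, a cytosolic folate enzyme, stood at 7.66 and 1.23 CPM, and Phgdh, the first enzyme of serine synthesis, at 15.8 and 3.64 CPM. Shmt1, a cytosolic serine hydroxymethyltransferase, stood at 78.8 and 54.5 CPM. None of 20 cytosolic aminoacyl-tRNA synthetases passed 2-fold (median -0.07), with Qars at 189 and 124 CPM, Dars at 318 and 465 CPM and Yars at 69.6 and 53.3 CPM.

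The other arms of the unfolded protein response, led by Atf6 and Xbp1, had a median log2 ratio of -0.33, with 16 of 18 genes below 0 and none past 2-fold. The largest differences were those of endoplasmic reticulum folding proteins, Calr at 2300.4 and 1213 CPM, Pdia4 at 149 and 80.3 CPM and Pdia6 at 442 and 239.9 CPM. The 9 genes of eIF2, eIF2B and Eif2ak2 had a median of 0.04, which became -0.05 with total counts alone. Among these subunits Eif2b2 had 64.2 and 52.4 CPM, Eif2s1 189 and 227 CPM, and Eif2s2 219 and 258 CPM. Mitochondrial stress genes had 1 of 9 at least 2-fold lower, the chaperone gene Trap1 (128 and 57.1 CPM), beside Clpp, a matrix protease, at 34.1 and 19.6 CPM and Hspe1, a chaperonin, at 108 and 72.2 CPM. Fgf21, a secreted Atf4 target, had no count in either library, and Gdf15, on the same list, had 0 and 4 counts (vehicle, brequinar).

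Among 15 measured genes of amino acid sensing by mTORC1, 1 was at least 2-fold higher and none lower (median -0.17). It was Sesn2, a leucine sensor that is a target of Atf4 and of p53 alike and stands on both lists, at 7.52 and 17.6 CPM. Castor2, an arginine sensor paralogue, had 2.18 and 1.42 CPM, and Rragd, a Rag GTPase, had 1.29 and 1.98 CPM. The p53 target list had a median of 1.22, with Phlda3 at 0.364 and 11.2 CPM and Plk2 at 0.707 and 6.63 CPM beside Cdkn1a. Glutathione and Nrf2 target genes had a median of 0.37, and 1 of 14 passed 2-fold, upwards. That gene was Hmox1, the haem-degrading enzyme of macrophages among other cells, at 6.37 and 54.3 CPM, followed by Nqo1 at 1.29 and 2.196 CPM and Gsr at 643 and 974 CPM. Markers of resident macrophages summed to 639.7 and 922 CPM in the same libraries, of which Vcam1 and Adgre1, both within 2-fold, held 590.6 and 721 CPM. The other 10 summed to 49.1 and 201 CPM, with Mrc1 at 0.647 and 9.99 CPM, Cd163 at 0.465 and 5.94 CPM and Axl at 1.84 and 18.3 CPM. The part of these cells in the Hmox1 value was not tested.

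Other amino acid carriers had 1 of 13 measured genes at least 2-fold higher and 1 lower, with a median log2 ratio of 0.02 whose sign turned with scaling. Slc15a3, a histidine and peptide carrier of lysosomes in myeloid cells, stood at 1.41 and 5.66 CPM, and Slc1a3, a glutamate and aspartate carrier, at 3.05 and 1.29 CPM. Among the 9 lists the p53 targets had the highest median and the Atf6 and Xbp1 genes the lowest.

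**Figure D4:**
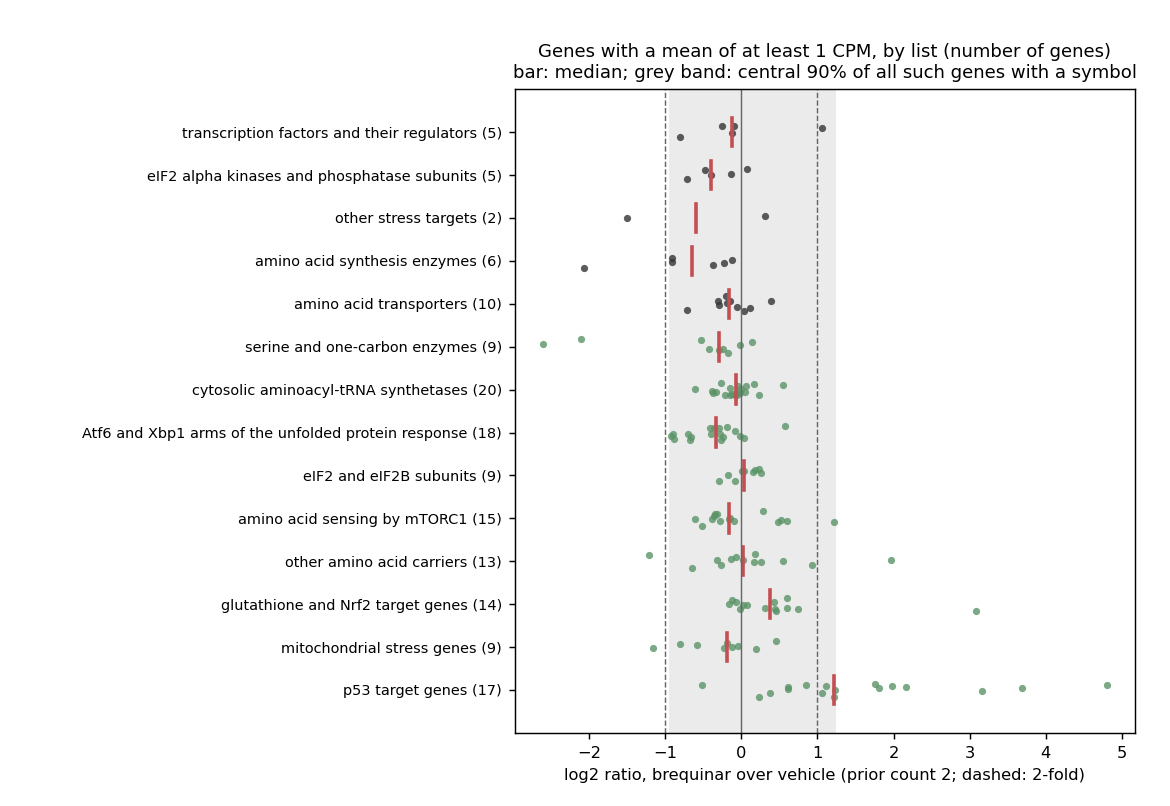
Log2 ratio (brequinar over vehicle, prior count of 2) of genes that average 1 CPM or more, with members by role in black and lists of neighbouring genes in green, red bars at the medians, and a grey band from -0.94 to 1.23 for the central 90% of genes with a symbol. Within the members Pycr1 and Stc2 lie to the left of the band, and the p53 targets have a median of 1.22.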

How the data were processed

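RNA selected with oligo(dT) went into a strand-preserving library kit and was sequenced as paired ends of 101 bases, per the labels' protocols. The authors deposited raw read counts for each gene, as whole numbers without normalisation. Per the submitters' processing notes, STAR 2.4.2a, Picard 1.99 and 2.2.4 and the build mm10 were used. Counting program, strand setting and annotation release were not given in the sources used here. In each library 4 closing lines that name no gene held 21.6% and 20.2% of reads (vehicle, brequinar) and were left out.

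Symbols, lengths and coordinates came from GENCODE mouse release 21 (GRCm38, the assembly mm10 names). Promoters came from RefSeq (GRCm38.p6). TMM factors (1.03 and 0.969) came from edgeR 4.0.16 under R 4.3.3. Log2 ratios used a prior count of 2, and genes averaging 1 CPM or more entered. Since 1 library per group allows no test, genes were counted as higher or lower only at a change of 2-fold or more. Elsewhere the words higher and lower give the direction of a difference of any size. Fold values with intervals carry no prior count. Levels per kilobase used the longest transcript. Other software was Python 3.11.15, numpy 2.4.6, pandas 2.3.3, scipy 1.17.1 and matplotlib 3.10.9. Scaling, ratios and intervals were tested on simulated counts with known fold changes. Those counts held counting error only, so that test cannot speak to the spread between mice or to cell makeup.

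The 36 members, 9 lists of neighbouring genes and 9 marker lists were chosen with earlier results of these data known. All members are named, with up to 3 genes of each list by absolute log2 ratio. Elane, Prtn3, Ctsg, Myb, Hoxa9, Meis1, Vcam1, Adgre1, Col1a1, Lepr, Aimp2, Mars, Oxa1l, Eif2ak2, Kit, Fgf21, Gdf15 and Slc7a10 are named outside this rule, chosen after their values were seen. Alternatives were DESeq2 1.42.0 size factors and other scalings, filters, prior counts, thresholds and thinning.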

Additional observations from a re-analysis of the deposited data

How the results depend on the processing

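No paired analysis was possible because each group holds 1 library, and for the same reason no library could be left out. The counts of members beyond 2-fold rest on few genes. With total counts alone, 0 were higher and 4 lower (5.75% and 5.49% of all genes). With totals trimmed of mitochondrial and the 50 most abundant genes, 0 were higher and 2 lower (5.82% and 5.26%). Without the filter 3 were higher and 6 lower (11.6% and 9.74%), and at a mean of at least 5 CPM 0 were higher and 1 lower (Stc2; 4.82% and 2.43%), because Pycr1 and Atf3 do not enter. At 1.5-fold 1 of 28 was higher and 7 were lower, where the shares of all genes were 12.7% and 12.7%. At 3-fold 0 were higher and 1 lower (390 and 161 of 11504 genes). With the whole counting interval beyond 2-fold, 0 were higher and 2 lower (5.22% and 2.50%). The mean log2 ratio of members was -0.32 in place of the median of -0.21. The median of the eIF2 and eIF2B genes turned to -0.0498 with total counts and -0.0379 with the trimmed totals. That of the other amino acid carriers turned to -0.0737 with total counts, -0.0157 with the upper quartile, -0.0618 with the trimmed totals and -0.0692 without the filter. Total-count scaling shifted all measured genes by a median of -0.09. Of the 36 members 2 changed the sign of their log2 ratio under any scaling, prior count or thinning (Ppp1r15b and Slc7a7). With summed exon length in place of the longest transcript, 7 members moved by over 1.5 times per kilobase. Depth limits Trib3, Vldlr, Cbs, Nupr1, Slc1a4, Slc6a9 and Chac1, each with fewer than 50 counts in either library. The spread between mice cannot be measured in these libraries.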

Other observations

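Markers of other cell types moved in both directions. The 8 B cell markers summed to 32.1 CPM in the vehicle library and 19.9 CPM in the brequinar library, with Vpreb1 at 0.424 and 1.61 CPM, Cd79b at 26.2 and 9.86 CPM and Cd79a at 2.57 and 3.62 CPM. Without Cd79b the other 7 B cell markers summed to 5.90 and 10.1 CPM. The 7 T and NK cell markers summed to 22.9 and 8.85 CPM, nearly all of it Nkg7, a cytotoxic granule gene (22.0 and 7.45 CPM). The 6 megakaryocyte markers summed to 2.75 and 8.61 CPM, with Gp9 at 1.92 and 5.49 CPM and Itga2b at 0.748 and 1.61 CPM. The 5 endothelial markers summed to 25.6 and 7.04 CPM, with Pecam1, which myeloid cells also carry, at 25.1 and 6.76 CPM. The 5 stromal markers summed to 8.81 and 5.27 CPM, with Pdgfrb at 6.93 and 2.50 CPM. Without Pdgfrb the other 4 stromal markers summed to 1.88 and 2.78 CPM, with Col1a1 at 0.323 and 1.01 CPM and Lepr at 0.0808 and 0.667 CPM. The erythroid genes that differed most were Car1 (0.424 and 9.32 CPM), Trim10 (0.222 and 2.17 CPM) and Ermap (0.384 and 3.23 CPM). Those of maturing neutrophils were Mmp9 (27.3 and 753 CPM), S100a9 (459 and 9365 CPM) and S100a8 (343 and 6945 CPM). Those of blasts were Mpo (5912 and 979 CPM), Flt3 (4.49 and 1.44 CPM) and Cd34 (140.1 and 48.8 CPM).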
